A study of Danio rerio with 9 samples.

Results

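The 10 genes described here, cdh5, kdr, kdrl, tie1, tek, fli1a, pecam1, vwf, clec14a and flt1, are commonly used to recognise endothelial cells. They were chosen by name, as the rows of the deposited table that carry these symbols, and each symbol stood on 1 of the 21692 rows. The choice was made with earlier results of these data known, so their counts beside all tested genes are a description. All 10 passed the filter on low values, which 17891 genes passed in all. The RNA was that of zebrafish (Danio rerio) atrioventricular valves, which were excised from cryosectioned hearts with a cutting laser (laser capture microdissection). There were 3 groups of 3 libraries, made from material described as 2 hearts each, from uninjured fish, from fish 48 h after ablation of valve cells and from fish 21 d after it. To ablate valve cells, fish were kept for 6 h in 2.5 mM metronidazole, a prodrug that kills cells engineered to make bacterial nitroreductase. The labels name neither strain, age, transgene nor the promoter that directed the ablation, and do not say whether uninjured fish were bathed in the drug.

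Endothelial cells line vessels, the inner surface of the heart and both faces of the valve leaflets. They are joined by VE-cadherin, the product of cdh5, and carry receptor tyrosine kinases of 2 families that vascular growth factors act on. One family binds Vegf ligands (kdr, kdrl and flt1 among the genes here), and the other, Tie1 and Tek, is linked to angiopoietins. In zebrafish, kdrl is widely used to mark vessels and endocardium and is the main receptor through which Vegfa drives vessel growth, beside kdr, the counterpart of mammalian KDR.

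Values are normalised read counts, the reads of a gene divided by a size factor of its library. Column totals ran from 15383031 to 21616553, and the 10 genes together took between 0.165% and 0.35% of a column, with each of them above 0 in every library. It is not stated that each library stands for its own fish, and the p-values therefore reflect only how these samples spread, which may be technical variation. In such bulk tissue fewer endothelial cells and less RNA per cell cannot be told apart. Library 1 of the 48 h group held the highest value of its group for 7 of the 10 genes, and uninjured library 2 held the lowest value of its group for 7. Red-cell markers summed to 1682259 in uninjured library 2, against 706702 and 980321 in the other uninjured libraries. In the other groups the library lowest for most genes had the lowest red-cell sum of its group. These were 48 h library 3 (lowest for 7 of the 10 genes, sum 303187) and 21 d library 2 (lowest for 6, sum 1113964). The part of red cells in the endothelial values was not tested.

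Tissue taken 48 h after ablation was first set against uninjured tissue. The endothelial identity genes that passed the test moved in both directions. The kinase receptor tie1, the ETS transcription factor fli1a and the surface lectin clec14a rose by 1.76-fold to 1.91-fold, while the Vegf receptors kdr and flt1 and the clotting factor vwf fell by 1.70-fold to 1.97-fold. The cadherin cdh5, the adhesion molecule pecam1, the Vegf receptor kdrl and the angiopoietin receptor tek did not pass the test. Thus 3 of 10 rose and 3 of 10 fell (limma adjusted p under 0.05), where 4.44% of all tested genes rose and 6.33% fell. The median log2 fold change of the 10 genes was 0.26, and it was 0.01 over all tested genes. Group values that did not overlap were higher at 48 h for 4 of the 10 genes and lower for 3, against 13.6% of all tested genes in each direction. Without uninjured library 2 the number of the 10 that rose was 0, and it was 1 without uninjured library 3 or 48 h library 1. The number that fell was 1 without uninjured library 1 and with equal column totals. Without uninjured library 2 the log2 fold changes of tie1, fli1a and clec14a were 0.81, 0.68 and 0.81. How many of all tested genes were called without single libraries was not counted. Equal column totals moved the median of all tested genes from 0.01 to 0.28 at 48 h and changed the calls over all genes from 794 higher and 1133 lower to 1346 and 653. Scaling a column shifts nearly all its genes alike on the log2 scale. Values relative to that median, 0.47 for cdh5 and -0.77 for kdr, therefore repeat those without the scaling and are no separate support.

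**Figure D1:**
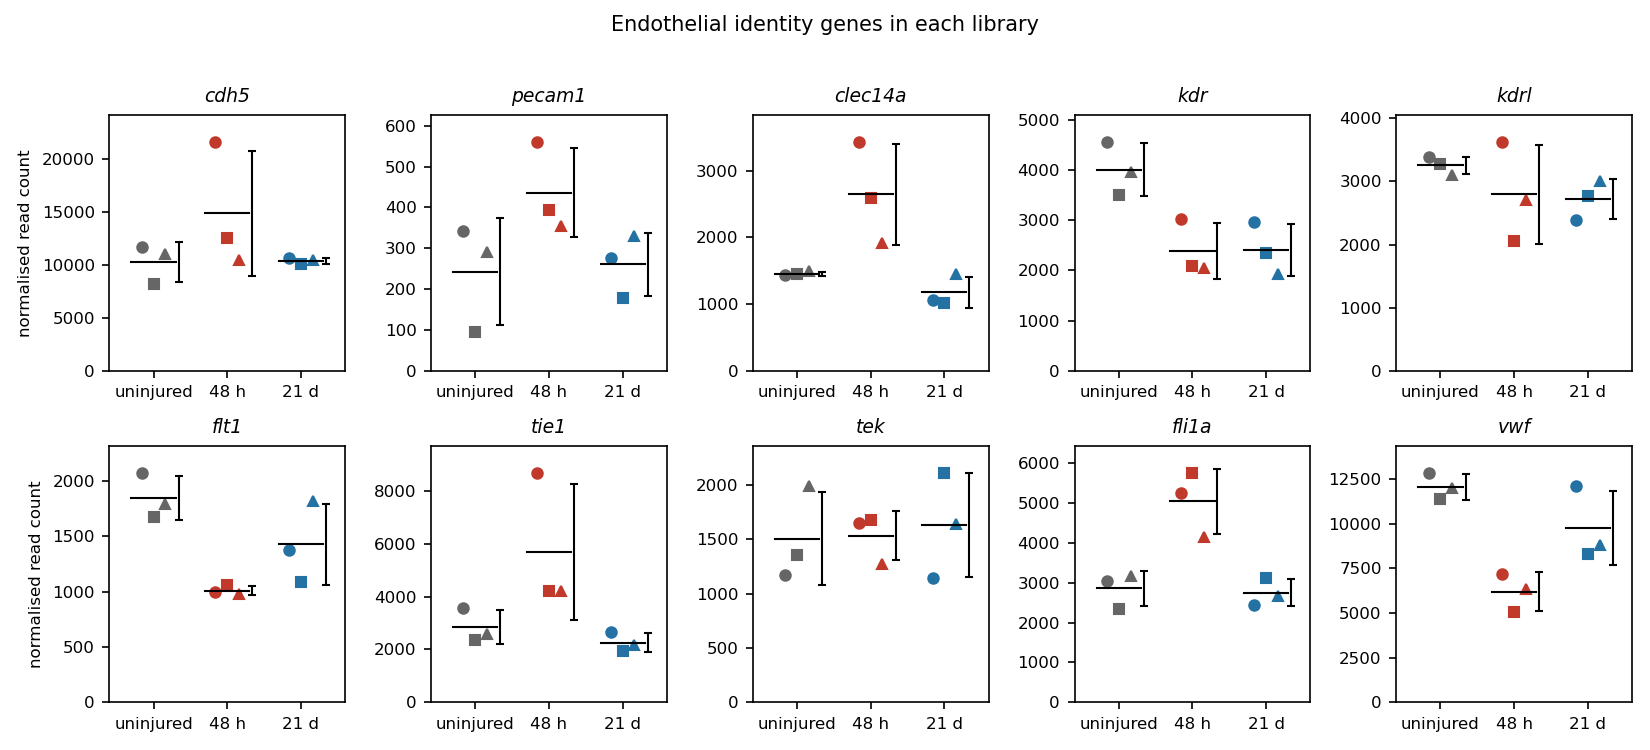
Normalised read counts of the 10 endothelial identity genes in each library (y axis, from 0) by group (x axis), with circles, squares and triangles for libraries 1, 2 and 3, a bar for the mean and a whisker for the SD (n = 3). The 48 h libraries lie above all uninjured libraries for tie1, fli1a, clec14a and pecam1 and below them for kdr, flt1 and vwf.

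Cell junction and surface genes come first. VE-cadherin, cdh5 (ENSDARG00000075549), holds neighbouring endothelial cells together. Its normalised counts were 11761, 8202 and 11009 in uninjured tissue, 21644, 12561 and 10455 at 48 h, and 10652, 10100 and 10446 at 21 d. The 48 h libraries overlapped the uninjured ones, and library 1 alone lay far above the other 8. The log2 fold change at 48 h was 0.47 (SE 0.21, adjusted p = 0.184). It did pass when 48 h library 3 was omitted (adjusted p = 0.039), when columns were scaled to the same total (0.0493) and under quantile normalization (0.0287). At 21 d cdh5 averaged 10399 ± 279 (SD, n = 3) against 10324 ± 1876 in uninjured tissue, and the log2 fold change was 0.03 (SE 0.21, adjusted p = 0.982).

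The gene pecam1 (ENSDARG00000060263) encodes an immunoglobulin-type adhesion molecule of endothelial junctions, which in mammals also stands on platelets and leukocytes. Its counts were low, 342, 94 and 291 in uninjured libraries 1 to 3, 560, 394 and 355 at 48 h, and 276, 178 and 329 at 21 d. All 48 h libraries lay above all uninjured ones, and uninjured library 2 was the lowest of all. Its log2 fold change at 48 h was the widest in error, 1.02 with an SE of 0.44 (adjusted p = 0.156). Without uninjured library 2 the estimate was 0.44 (adjusted p = 0.595).

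The transmembrane lectin clec14a (ENSDARG00000103533) is an endothelial surface protein. Counts were 1437, 1446 and 1491 in uninjured libraries 1 to 3, 3429, 2586 and 1923 at 48 h, and 1062, 1017 and 1449 at 21 d. The 3 uninjured libraries were nearly equal, with a coefficient of variation of 1.98%, and every 48 h library lay above every other library. It rose 1.77-fold at 48 h (log2 fold change 0.82 with SE 0.23, adjusted p = 0.0213). Omitting 1 library ended the call for uninjured library 1 (adjusted p = 0.0583), 2 (0.0622) and 3 (0.0535) and for 48 h library 1 (0.119) and 2 (0.0565). The log2 fold changes in these fits were 0.81, 0.81, 0.84, 0.61 and 0.82 in that order.

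Of the 3 Vegf receptors, kdr and flt1 fell and kdrl did not pass. The gene kdr (ENSDARG00000017321) had counts of 4559, 3509 and 3958 in uninjured libraries 1 to 3, 3022, 2084 and 2042 at 48 h, and 2965, 2339 and 1936 at 21 d. Both injured groups lay entirely below the uninjured libraries and at nearly the same level as each other. It fell 1.70-fold at 48 h (log2 fold change -0.77 with SE 0.21, adjusted p = 0.0189). Omitting uninjured library 1 (adjusted p = 0.0917) or 3 (0.0548), or 48 h library 2 (0.0788) or 3 (0.0806), ended the call. It also ended with equal column totals (-0.49, adjusted p = 0.176) and under quantile normalization (-0.49, adjusted p = 0.151). Without those single libraries the log2 fold changes were -0.67, -0.77, -0.68 and -0.67 in that order.

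The receptor flt1 (ENSDARG00000019371) binds Vegfa tightly and, through a soluble form, limits how much of it reaches other receptors. The values are per gene and do not separate its soluble from its membrane form. Counts were 2065, 1672 and 1794 in uninjured libraries 1 to 3, 997, 1056 and 975 at 48 h, and 1376, 1086 and 1813 at 21 d. The 48 h libraries were close together and below all of the other 6. It fell 1.82-fold at 48 h (log2 fold change -0.86 with SE 0.23, adjusted p = 0.0133), a call lost without uninjured library 1 (adjusted p = 0.0641) and with equal column totals (0.112).

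The receptor kdrl (ENSDARG00000105215) had counts of 3383, 3279 and 3107 in uninjured libraries 1 to 3, 3626, 2058 and 2705 at 48 h, and 2383, 2771 and 3012 at 21 d. At 48 h library 1 lay above and libraries 2 and 3 below the uninjured range. The log2 fold change was -0.26 (SE 0.21, adjusted p = 0.5), and its sign turned to 0.02 with equal column totals (adjusted p = 0.965) and with quantile normalization (0.97). Tested directly, the change of kdr minus that of kdrl was -0.51 on the log2 scale (adjusted p = 0.335), so the paralogs were not shown to differ. In single libraries the ratio of kdr to kdrl was 1.35, 1.07 and 1.27 in uninjured tissue and 0.833, 1.01 and 0.755 at 48 h. At 21 d it spread from 0.643 to 1.24.

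The Tie receptors form the second family of kinases. Tie1 binds no angiopoietin by itself in mammals and modulates signalling by Tek, the angiopoietin receptor. Counts of tie1 (ENSDARG00000004105) were 3576, 2369 and 2591 in uninjured libraries 1 to 3, 8650, 4194 and 4219 at 48 h, and 2667, 1946 and 2175 at 21 d. Every 48 h library lay above all of the other 6, and library 1 was again the highest of its group. It rose 1.91-fold at 48 h (log2 fold change 0.93 with SE 0.25, adjusted p = 0.0184). Without 48 h library 1 the log2 fold change was 0.59 (adjusted p = 0.0967), and the call was also lost without uninjured library 2 (0.0909) or 3 (0.0718).

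Counts of tek (ENSDARG00000028663) were 1174, 1353 and 1995 in uninjured libraries 1 to 3, 1649, 1679 and 1276 at 48 h, and 1145, 2106 and 1641 at 21 d. The 3 groups overlapped throughout. The log2 fold change was 0.05 at 48 h (SE 0.25, adjusted p = 0.937) and 0.11 at 21 d (SE 0.25, adjusted p = 0.913), and neither sign was stable to leaving out single libraries. The ratio of tie1 to tek within a library was 3.05, 1.75 and 1.30 in uninjured tissue and 5.25, 2.50 and 3.31 at 48 h, and these ranges overlapped. At 21 d it was 2.33, 0.924 and 1.33.

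The transcription factor fli1a (ENSDARG00000054632) belongs to the ETS family, whose members switch on endothelial genes during vessel development; in zebrafish it is also active in some mesenchyme of the head. Counts were 3046, 2346 and 3163 in uninjured libraries 1 to 3, 5238, 5731 and 4134 at 48 h, and 2446, 3124 and 2670 at 21 d. All 48 h libraries lay above all others, here with library 2 and not library 1 the highest. It rose 1.76-fold at 48 h (log2 fold change 0.82 with SE 0.19, adjusted p = 0.00635). The adjusted p was 0.0528 without uninjured library 2.

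Von Willebrand factor, vwf (ENSDARG00000077231), is a clotting protein that endothelial cells store and release, and that thrombocytes, the platelet counterparts of fish, make as well. Counts were 12815, 11403 and 11978 in uninjured libraries 1 to 3, 7201, 5045 and 6328 at 48 h, and 12122, 8281 and 8837 at 21 d. The 48 h libraries lay below all of the other 6. It fell 1.97-fold at 48 h (log2 fold change -0.98 with SE 0.18, adjusted p = 4.7e-04), and it passed under all 19 alternatives, with adjusted p of at most 0.0223. With quantile normalization the log2 fold change was -0.65. Of 10 tested thrombocyte markers 0 rose and 2 fell (limma; 2 higher and 2 lower at an unadjusted p under 0.05). Over all tested genes 4.44% rose and 6.33% fell. The 2 that fell, named after their values were seen, were gp1bb, with counts of 3715, 7552 and 4412 and then 2256, 3349 and 3178, and the coagulation factor gene f13a1a.1, with 4978, 950 and 1328 and then 13, 0 and 14. The number that fell was 1 without any one of uninjured libraries 2 and 3, the 48 h libraries, or 21 d libraries 1 and 3, and also with equal column totals, quantile normalization, no robust step and 2 groups in the fit. With a pseudocount of 5, 2 groups in the fit, or without 21 d library 2, 1 marker rose. The thrombocyte integrin gene itga2b differed by 0.41 on the log2 scale (adjusted p = 0.608) and the thrombopoietin receptor gene mpl by 0.56 (adjusted p = 0.802), with overlapping libraries. At 48 h the median log2 fold change of the 10 markers was 0.32. Also named after their values were seen, selp and fermt3b were higher without overlap (limma adjusted p = 0.101 and 0.117). Counts of selp went from 39, 21 and 16 to 303, 162 and 274, and those of fermt3b from 115, 147 and 56 to 221, 238 and 325. Summed thrombocyte markers ran from 12161 to 15904 at 48 h and from 18108 to 18807 in uninjured tissue. These sums include gp1bb and f13a1a.1, the 2 that fell, so they do not describe the list as a whole. The abundant thbs1b, also named after its values were seen, overlapped, with 8766, 7055 and 10759 and then 8923, 8910 and 6479. The part of these markers in the vwf result was not tested.

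**Figure D2:**
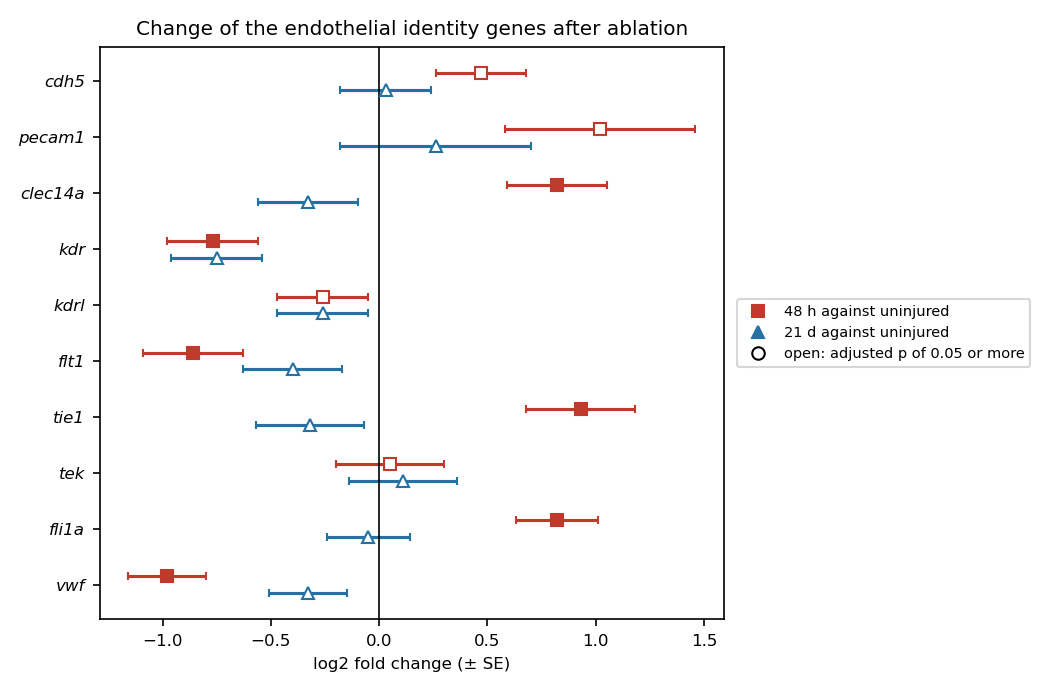
Log2 fold changes with SE (x axis) of the 10 endothelial identity genes at 48 h (squares) and 21 d (triangles) against the same 3 uninjured libraries, filled where the limma adjusted p was under 0.05. At 48 h, 3 genes are filled on each side of 0, and at 21 d every symbol is open.

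At 21 d none of the 10 genes passed against uninjured tissue (limma; 0 higher and 1 lower at an unadjusted p under 0.05), where 0.52% of all tested genes were higher and 0.933% lower. The gene with the unadjusted p under 0.05 was kdr, at 2413 ± 519 against 4009 ± 527 (SD, n = 3; log2 fold change -0.75 with SE 0.21, adjusted p = 0.0832). It passed with only these 2 groups in the fit (adjusted p = 0.0342) and without 48 h library 1 (0.0421). The ranges of kdr and kdrl at 21 d lay below the uninjured ones, 2 of the 10 genes, and none lay above, against 9.46% of all tested genes with lower and 8.44% with higher ranges. The log2 fold changes of the other 8 genes lay between -0.40 for flt1 and 0.26 for pecam1. The median over the 10 genes was -0.29, beside 0.02 over all tested genes.

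Set against 48 h, the genes tie1, fli1a and clec14a were lower at 21 d and vwf was higher, 3 and 1 of 10, while 4.4% of all tested genes were lower and 5.48% higher. This comparison shares its 48 h libraries with the first one and its 21 d libraries with the second. The log2 fold changes were -1.25 for tie1 (SE 0.25, adjusted p = 0.00211), -1.15 for clec14a (SE 0.23, adjusted p = 0.00153) and -0.87 for fli1a (SE 0.19, adjusted p = 0.00432). These 3 calls held under all 19 alternatives. Ranges at 21 d lay below those at 48 h for 4 of the 10 genes and above for 2, against 13.7% and 13.6% of all tested genes. The log2 fold change of vwf was 0.65 (SE 0.18, adjusted p = 0.0181). Omitting 48 h library 2 (adjusted p = 0.11) or 21 d library 1 (0.146) ended that call, as did scaling to equal totals (0.40, adjusted p = 0.21) or by quantiles (0.40, adjusted p = 0.184). With equal column totals the calls over all genes in this comparison were 605 higher and 1281 lower in place of 980 and 788. Neither kdr (0.02, adjusted p = 0.973, with a negative sign under 5 alternatives) nor flt1 (0.47, adjusted p = 0.223) passed between 48 h and 21 d. Markers of other cells moved in this comparison too, and their part in it was not tested. Proliferation markers were lower at 21 d in 7 and higher in 0 of 14 (limma; 10 and 0 at an unadjusted p under 0.05), and macrophage markers were lower in 6 and higher in 3 of 12. Fibroblast and valve interstitial markers were higher in 7 and lower in 1 of 11, and heart-muscle markers higher in 6 and lower in 2 of 11. Of the heart-muscle rows 2 were for actc1a, at 1.87 (limma adjusted p = 3.3e-07) and -5.79 (0.154) on the log2 scale. For heart muscle the counts were 3 and 4 without the robust step, 4 were lower with 2 groups in the fit, and 1 was lower without 48 h library 2 or 21 d library 3. Red-cell markers were higher in 1 and lower in 0 of 11 (limma; 7 and 1 at an unadjusted p under 0.05), with 5 higher without uninjured library 2, 2 without 21 d library 2 and 6 without the robust step, and 1 lower without uninjured library 1.

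A difference between 2 genes within a library does not depend on the scaling of that library, nor on the share of endothelial cells in it where both genes are read from those cells alone. Each gene was therefore also measured against cdh5 of the same library. The spread of cdh5 then entered the values of every gene, while the fit borrows its estimate of spread across genes. The p-values relative to cdh5, or to another reference, may therefore be too small. At 48 h the genes vwf, flt1 and kdr fell relative to cdh5, 3 of 9 genes, where 8.88% of all tested genes fell relative to cdh5. At an unadjusted p under 0.05 (limma), 4 of the 9 fell, kdrl among them. None of the 9 rose by limma (0 also at an unadjusted p under 0.05), where 1.46% of all tested genes did. The level of vwf was 109%, 139% and 109% of cdh5 in the uninjured libraries and 33.3%, 40.2% and 60.5% at 48 h (log2 difference -1.45 with SE 0.35, adjusted p = 0.00212). For flt1 the shares were 17.6%, 20.4% and 16.3%, and then 4.61%, 8.41% and 9.33% (log2 difference -1.34 with SE 0.38, adjusted p = 0.0109). For kdr they were 38.8%, 42.8% and 36.0%, and then 14.0%, 16.6% and 19.5% (log2 difference -1.24 with SE 0.35, adjusted p = 0.0127). None of these ranges overlapped between uninjured and 48 h libraries. Nor did those of kdrl, at 28.8%, 40.0% and 28.2% and then 16.8%, 16.4% and 25.9% (log2 difference -0.73 with SE 0.36, limma adjusted p = 0.199). How many of all tested genes separate in this way relative to cdh5 was not counted. Without uninjured library 2 the adjusted p was 0.0548 for kdr and 0.0545 for flt1.

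The genes that rose in normalised counts were not shown to differ from cdh5. Their log2 differences from cdh5 at 48 h were 0.46 for tie1 (SE 0.35, adjusted p = 0.462), 0.35 for fli1a (SE 0.35, adjusted p = 0.607) and 0.35 for clec14a (SE 0.36, adjusted p = 0.618). In single libraries tie1 stood at 30.4%, 28.9% and 23.5% of cdh5 in uninjured tissue and 40.0%, 33.4% and 40.4% at 48 h, without overlap. The shares of fli1a overlapped, since 48 h library 1 had 24.2% and libraries 2 and 3 had 45.6% and 39.5%. With kdrl as the reference, tie1 (log2 difference 1.19, adjusted p = 0.00649), fli1a (1.08, adjusted p = 0.0166) and clec14a (1.08, adjusted p = 0.0203) rose, and vwf (-0.72, adjusted p = 0.109), flt1 (-0.61, adjusted p = 0.269) and kdr (-0.51, adjusted p = 0.335) did not pass. How many of all tested genes rose or fell relative to kdrl was not counted. At 21 d no gene passed relative to cdh5 against uninjured tissue (limma; 0 higher and 1 lower at an unadjusted p under 0.05), where 0.0783% of all tested genes were higher and 0.279% lower. At 21 d the level of vwf was 114%, 82.0% and 84.6% of cdh5, above each 48 h library (log2 difference between 21 d and 48 h 1.1 with SE 0.35, adjusted p = 0.0314). It was 1 of 9 genes, where 7.41% of all tested genes rose in that comparison, and 0 of 9 were lower (limma; 1 at an unadjusted p under 0.05), where 1.05% of all tested genes were. Omitting uninjured library 3 (adjusted p = 0.0518), 48 h library 2 (0.106) or 21 d library 1 (0.208), 2 (0.0916) or 3 (0.0913) ended the call.

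**Figure D3:**
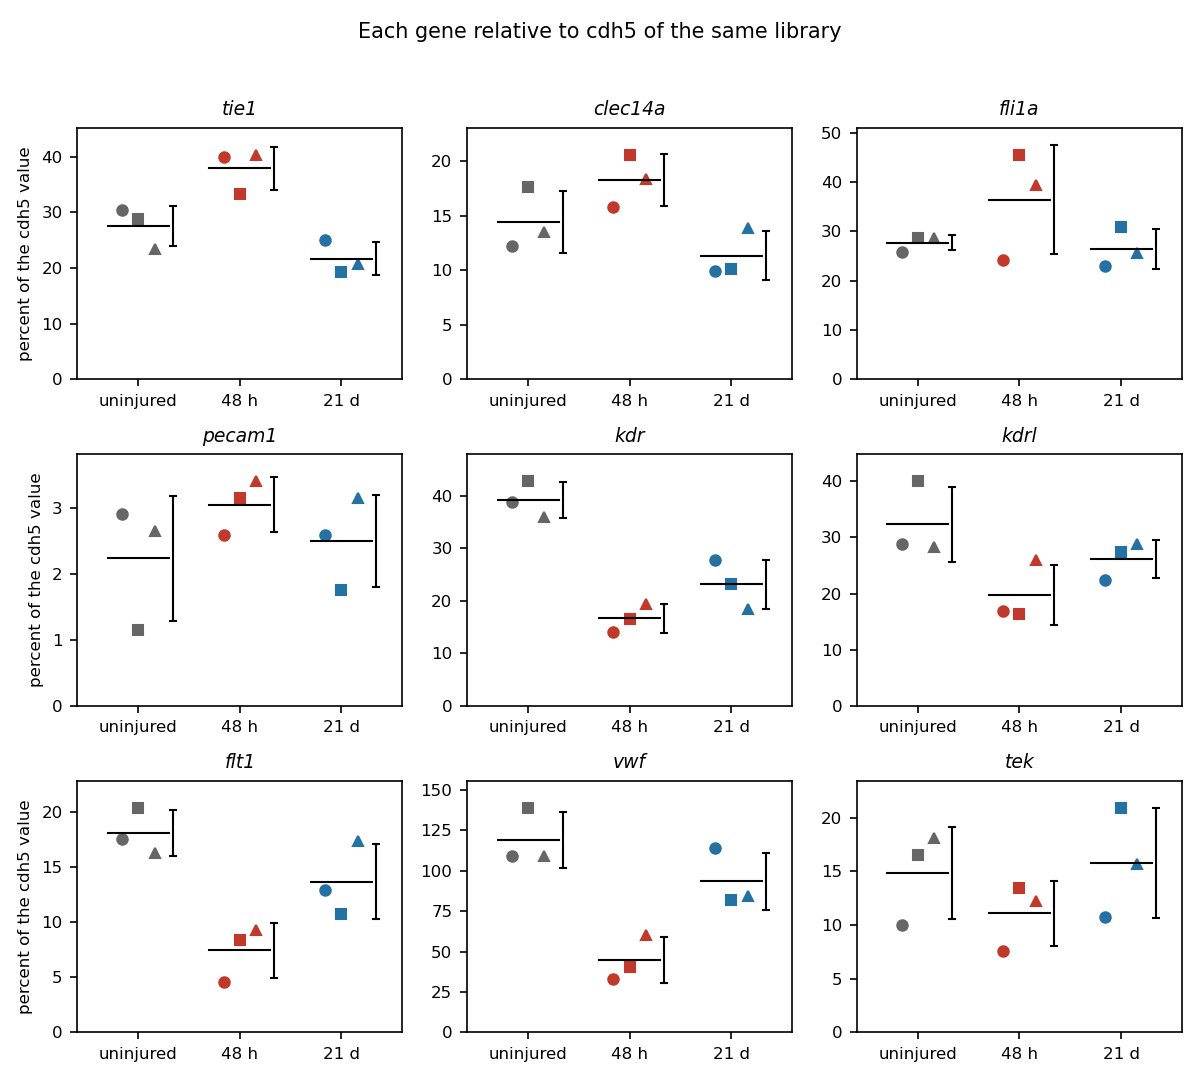
Value of each of 9 genes as a percentage of the cdh5 value of the same library (y axis, from 0) by group (x axis), with circles, squares and triangles for libraries 1, 2 and 3, a bar for the mean and a whisker for the SD (n = 3). The 48 h libraries of vwf, flt1, kdr and kdrl lie below all uninjured libraries, and those of tie1 lie above them.

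Other endothelial genes were taken from 4 lists. Of 25 tested junction and surface genes, 4 rose and 2 fell at 48 h (limma, 6 and 2 at an unadjusted p under 0.05). The median log2 fold change was -0.03. The 4 and 2 called stand beside 4.44% of all tested genes that rose and 6.33% that fell, and the count that fell is near that share. Quantile normalization gave 6 higher. The adhesion molecule esama rose 4.46-fold, from counts of 347, 201 and 510 to 1808, 1478 and 1189 (log2 fold change 2.16 with SE 0.31, adjusted p = 3.7e-05). The guidance receptor robo4, the tight-junction claudin cldn5b and the GTPase-binding protein rasip1, named after their values were seen, rose by 2.50, 1.93 and 1.79 on the log2 scale (adjusted p = 2.5e-04, 7.9e-04 and 7.8e-05). Each of these 4 had all 48 h libraries above all uninjured ones, which adds no support since they were named as called. Over the list, 48 h ranges lay above the uninjured ones for 7 of the 25 and below for 2. Among all tested genes this was 13.6% each way. The water channel aqp1a.1, which red cells carry as well, fell from 3431, 5521 and 3511 to 1097, 1358 and 809 (log2 fold change -1.93 with SE 0.23, adjusted p = 2.3e-06). The sphingosine-phosphate receptor s1pr2 fell by 0.66 (SE 0.20, adjusted p = 0.039), a call lost without any single uninjured library (adjusted p between 0.0739 and 0.116), without 48 h library 2 (0.0842) or 3 (0.11) and without 21 d library 1 (0.0509) or 3 (0.0528). It was also lost with equal column totals (0.283), quantile normalization (0.1), no filter (0.0578) and 2 groups in the fit (0.072). At 21 d 0 of 25 passed in either direction (limma; 2 higher and 1 lower at an unadjusted p under 0.05). The smallest adjusted p there belonged to radil and s1pr2, radil with counts of 37, 23 and 49 against 0, 0 and 1 (log2 fold change 4.83 with SE 1.69, adjusted p = 0.201, a fit that depends on the pseudocount) and s1pr2 at 0.46 on the log2 scale (SE 0.20, adjusted p = 0.349). The 21 d counts of esama were 459, 545 and 488.

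Ligands and co-receptors of the Vegf and Tie receptors had 0 of 13 higher and 3 lower at 48 h (limma; 2 higher and 5 lower at an unadjusted p under 0.05), with a median of -1.25, beside 4.44% of all tested genes higher and 6.33% lower. Equal column totals gave 2 higher. There was 1 higher with a pseudocount of 5, no filter, array weights, the replicate block, 2 groups in the fit, or without uninjured library 1, 48 h library 1 or 21 d library 2, and array weights gave 5 lower. The Vegf ligand vegfab fell from 5625, 7018 and 6612 to 1631, 1504 and 2855 (log2 fold change -1.74 with SE 0.22, adjusted p = 7.1e-06). At 21 d it stood at 1966, 2717 and 2363, still below every uninjured library (log2 fold change -1.46 with SE 0.22, adjusted p = 6.5e-04). Its copy vegfaa, named after its values were seen, fell by 1.25 on the log2 scale at 48 h (SE 0.34, adjusted p = 0.0182), a call lost without uninjured library 2 (0.116) or 3 (0.0713), without 48 h library 1 (0.0894) and with equal column totals (0.0667). Not every ligand was lower. The ligand vegfc, also named after its values were seen, went from counts of 86, 0 and 17 to 245, 276 and 439, without overlap. Its log2 fold change was 4.74 (SE 1.58, adjusted p = 0.0599), a fit that depends on the pseudocount. Ranges at 48 h lay above the uninjured ones for 2 of the 13 and below for 5, against 13.6% of all tested genes each way. The secreted matrix protein svep1, known in zebrafish for its part in lymphatic growth, fell by 2.13 on the log2 scale (SE 0.26, adjusted p = 3.7e-06). At 21 d the Tek ligand angpt1 was higher, with counts of 689, 775 and 723 against 244, 375 and 346 (log2 fold change 1.20 with SE 0.31, adjusted p = 0.0497). That call lay at the threshold and was lost without any single uninjured or 21 d library (adjusted p between 0.0873 and 0.201), without 48 h library 3 (0.0537) and in 4 other alternatives (0.0505 to 0.0694). Without single uninjured or 21 d libraries its log2 fold change lay between 1.01 and 1.32.

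Among 18 tested endothelial transcription factors, 2 rose and 0 fell at 48 h (limma; 5 and 1 at an unadjusted p under 0.05), with a median of 0.18. Over all tested genes 4.44% rose and 6.33% fell. With equal column totals 5 of these factors rose. There was 1 that fell with a pseudocount of 5, a stricter filter, no robust step, or without uninjured library 1 or 48 h library 3. The second fli1 copy, fli1b, rose from 624, 652 and 874 to 1726, 1417 and 1189 (log2 fold change 1.01 with SE 0.25, adjusted p = 0.0091), beside the rise of fli1a. The factor nr2f2, known for venous and lymphatic identity, rose by 1.42 on the log2 scale (SE 0.32, adjusted p = 0.00414). At 21 d mef2cb, a factor of heart muscle and endothelium, was lower, with a fold change of -1.06 on the log2 scale (SE 0.27, adjusted p = 0.0459). Omission ended the call for uninjured library 2 (0.243) and 3 (0.126) and each 21 d library (0.102 to 0.148), and 3 other alternatives also ended it (0.0508 to 0.0695). The ETS factor elk3 stood at 0.79 on that scale (SE 0.26, adjusted p = 0.157).

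Of 10 tested lymphatic and scavenger genes, 0 passed in either direction at 48 h (limma; 1 and 1 at an unadjusted p under 0.05), with a median of 0.68. Beside this, 4.44% of all tested genes rose and 6.33% fell. There was 1 higher with equal column totals, a stricter filter, or without uninjured library 3 or 21 d library 2. The median includes genes with low counts and wide errors. Among these, named after their values were seen, were lyve1a (2.81, SE 2.07), mrc1a (2.28, SE 1.96), flt4 (1.40, SE 1.51) and prox1b (-1.30, SE 1.44). The scavenger receptor stab1 came to a log2 difference of 0.97 (SE 0.33, adjusted p = 0.0591). Its adjusted p fell under the threshold with equal column totals (0.0142), a stricter filter (0.0495) and 21 d library 2 omitted (0.0481). The lymphatic factor prox1a, which heart muscle also uses, had -0.59 (SE 0.26, adjusted p = 0.155). At 21 d, again with 0 of 10 in either direction (0 higher and 1 lower at an unadjusted p under 0.05), the related receptor stab2 had counts of 0, 6 and 19 against 103, 96 and 86 (log2 fold change -4.20 with SE 1.15, adjusted p = 0.0697, a fit that depends on the pseudocount). It passed with a pseudocount of 5 (0.0455), no filter (0.0484), array weights (0.0495) and without 21 d library 3 (0.0422). The log2 fold change of stab1 at 21 d was 0.68 (SE 0.33, adjusted p = 0.422).

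**Figure D4:**
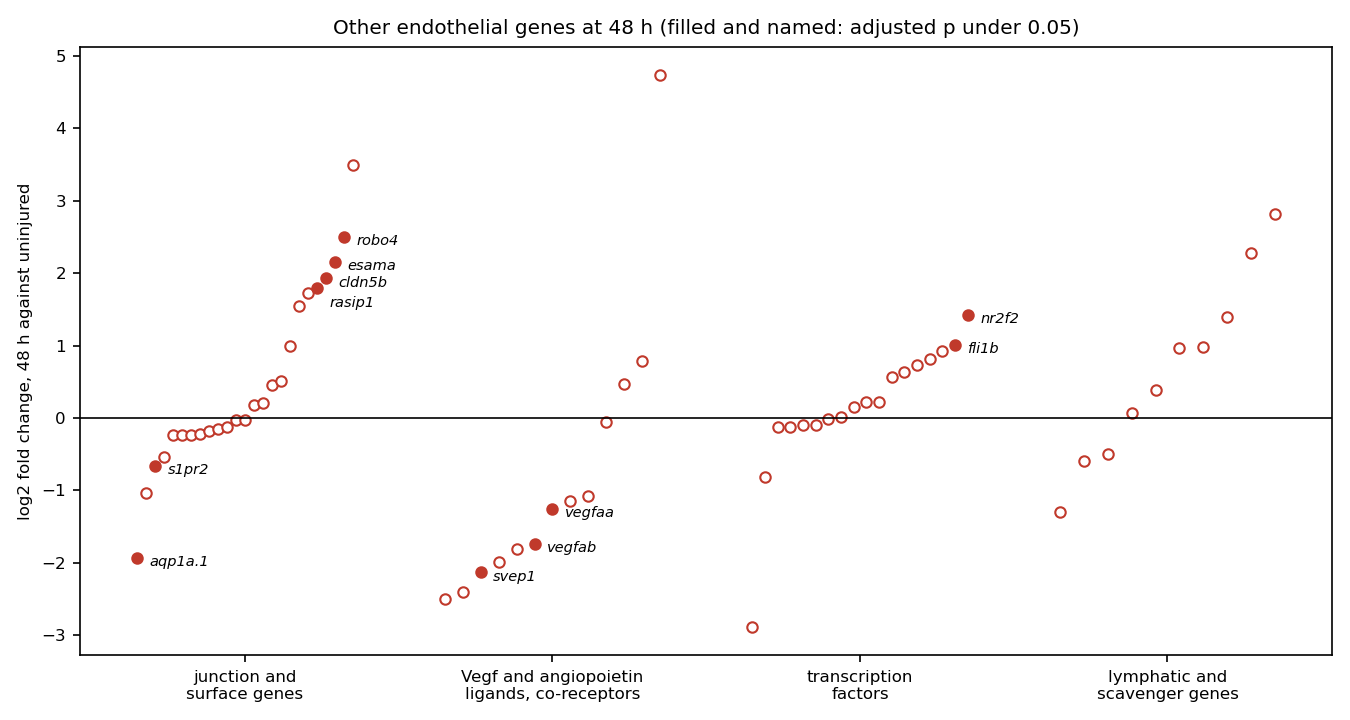
Log2 fold change at 48 h against uninjured tissue (y axis) of the tested genes of 4 endothelial lists (x axis, ordered by value within a list), filled and named where the limma adjusted p was under 0.05. Filled are 4 junction and surface genes above 0 and 2 below, 3 Vegf and angiopoietin genes below 0, and 2 transcription factors above. The open symbol at 4.74 in the Vegf and angiopoietin list is vegfc.

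Markers of other cells moved with the groups, and their part in the endothelial results was not tested. Their counts stand beside 4.44% of all tested genes that rose and 6.33% that fell at 48 h. At 48 h macrophage markers rose in 9 and fell in 0 of 12 (limma; 9 and 2 at an unadjusted p under 0.05; 1 fell under quantile normalization, without the robust step and without 48 h library 3), mpeg1.1 by 2.65 and mfap4 by 3.97 on the log2 scale, and their summed counts ran from 10425 to 14557, against 3960 to 4783 in uninjured tissue and 7109 to 9602 at 21 d. Proliferation markers rose in 10 and fell in 0 of 14 (limma; 13 and 0 at an unadjusted p under 0.05), mki67 by 2.65 and pcna by 1.53. Their sums were 15602, 9590 and 12696 in 48 h libraries 1, 2 and 3. Library 1 was also the highest of its group for cdh5 and tie1 and for the macrophage sums (14557, 10425 and 13632). Libraries 2 and 3 ranked the other way for cdh5, at 12561 and 10455. Fibroblast and valve interstitial markers rose in 1 and fell in 9 of 11, with log2 fold changes of -1.85 for dcn and -5.41 for lum.

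Heart-muscle markers rose in 0 and fell in 6 of 11 (limma; 1 and 6 at an unadjusted p under 0.05), with sums of 325520 to 418368 at 48 h against 624816 to 709567 in uninjured tissue. In this paragraph too the shares of all tested genes are 4.44% rising and 6.33% falling. The 11 were rows of 10 genes, since actc1a stood on 2 rows. On the log2 scale these were at -1.81 (limma adjusted p = 4.2e-07) and 4.17 (0.288). The number that fell was 3 without uninjured library 1, with equal column totals, under quantile normalization and without the robust step, with 2 rising in the last 3 settings and 1 in the first. Without 48 h library 1, 4 fell and 1 rose. The light chain gene myl7 had -0.64 (adjusted p = 0.0244) and tnnt2a -0.31 (0.551). The call of myl7 was lost without uninjured library 1 (0.115) or 48 h library 1 (0.089, log2 fold change -0.41), with equal column totals (0.214), quantile normalization (0.144), no robust step (0.112) and the replicate block (0.0635). Red-cell markers rose in 1 and fell in 1 of 11 (limma; 1 and 5 at an unadjusted p under 0.05), near the shares of all tested genes, and 4 fell without the robust step. Their 48 h ranges lay below the uninjured ones for 5 of 11 and above for 1, against 13.6% of all tested genes each way. Relative to cdh5, 7 of 11 fell and 1 rose, where 8.88% of all tested genes fell and 1.46% rose. Red-cell genes are not read from endothelial cells, so that count also depends on the share of each cell type. The median was -1.15, with log2 fold changes of -0.95 for hbaa1 and -1.64 for hbaa2 (adjusted p = 0.255 and 0.408). Mural and smooth-muscle markers rose in 0 and fell in 4 of 9 (limma; 1 and 6 at an unadjusted p under 0.05), with acta2 at -0.79 (adjusted p = 0.211) and tagln at 0.05 (0.98). The number that fell was 2 without 48 h library 3 and 1 with equal column totals, where 1 rose, as 1 did under quantile normalization and without 48 h library 1. Without 48 h library 2 acta2 passed at -1.11 (0.0341), and without 48 h library 1 tagln passed at 1.0 (0.0345). No marker of these 7 lists was at 0 in every library.

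**Figure D5:**
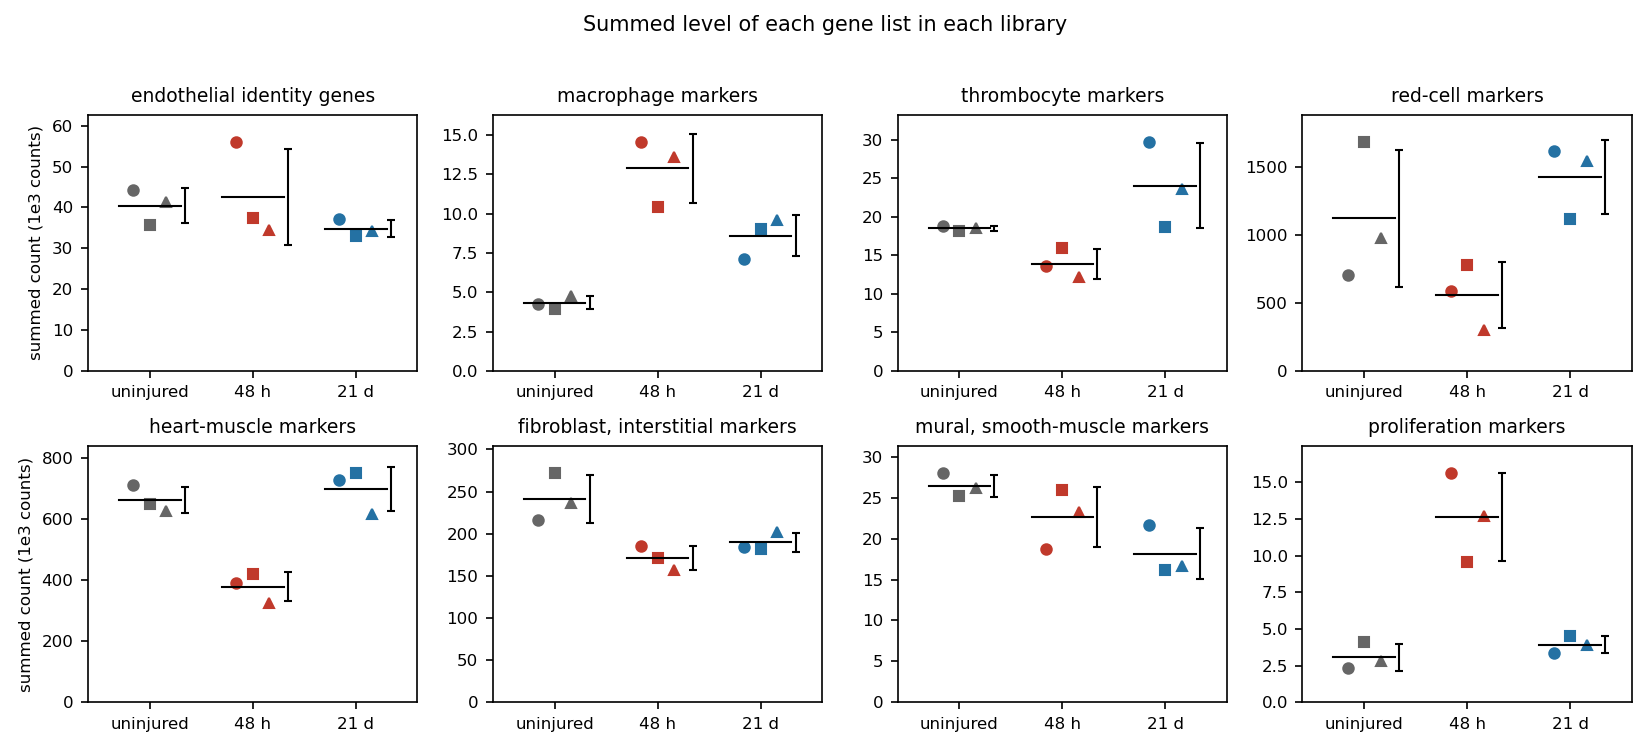
Summed normalised counts (axis in units of 1e3 counts) of the 10 endothelial identity genes and of 7 marker lists in each library (y axis, from 0) by group (x axis), with circles, squares and triangles for libraries 1, 2 and 3, a bar for the mean and a whisker for the SD (n = 3). Endothelial sums overlap between uninjured and 48 h libraries, while macrophage and proliferation sums are higher and heart-muscle sums lower at 48 h without overlap.

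Over the 9 libraries, the genes most like cdh5 in their log2 values, out of 10762 compared, were nlrc3l1 (Pearson r = 0.959), matr3l1.1 (0.953), rab8a (0.929), aim1a (0.900), fgd5a (0.895) and abhd10a (0.894). The likeness leans on 2 libraries: without uninjured library 2 and 48 h library 1, the values farthest from the median of cdh5, r was 0.47 for nlrc3l1, 0.91 for matr3l1.1, 0.20 for rab8a, 0.38 for aim1a, 0.70 for fgd5a and 0.72 for abhd10a. The genes most like the mean of the 10 endothelial genes were si:dkey-151g10.3 (0.946), fgd5a (0.937), laynb (0.899), c4 (0.891), snx12 (0.881) and flrt3 (0.880). Without uninjured library 1 and 48 h library 1, r was 0.84, 0.75, 0.72, 0.82, 0.69 and 0.55 for these genes in the same order. The 10 genes did not all follow their own mean. Their r with it was 0.889 for cdh5, 0.840 for tie1, 0.762 for clec14a, 0.748 for pecam1 and 0.615 for fli1a. It was 0.435 for kdrl, 0.341 for kdr, 0.052 for tek, -0.079 for flt1 and -0.142 for vwf. These values describe 9 libraries in 3 groups and carry no test. The gene fgd5a, a guanine nucleotide exchange factor that endothelial cells of mammals express, stood in both sets, with 1326 ± 366 counts in uninjured libraries, 1914 ± 737 after 48 h and 1007 ± 31.7 after 21 d (SD, n = 3).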

How the data were processed

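Per the submitters' processing notes, which give names and versions without roles, the tools included FastQC 0.11.8, Trimmomatic 0.33, STAR 2.6.0c, featureCounts 1.6.0 and DESeq2 1.18.1, with builds danRer11 and GRCz11. Per the labels' protocols, polyA RNA was sequenced from a directional kit. Whether counting used strand is not given in the sources used here. The deposited table holds a normalised signal per gene, whole numbers. A check of the values bore on the size factors: recomputed by the median of ratios over 13019 genes, they lay within 0.109% of each other, as read counts already divided by such factors would.

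The design allowed for raw counts, so the test it names for normalised values was used. Values were log2-transformed after adding 1, and a gene entered when 3 or more libraries reached 10. All 9 libraries entered 1 model in limma 3.58.1 (R 4.3.3) (empirical Bayes, trended and robust; 6 residual degrees of freedom), with Benjamini-Hochberg adjustment over all tested genes and a two-sided threshold of 0.05. Fold changes are on the log2(value + 1) scale. For differences from cdh5, its log2 value was subtracted from every gene of the same library before the same fit. All genes then share the spread of cdh5, which the fit does not allow for, so these p-values may be too small. The limma fit was tested on simulated data without that subtraction. List symbols that matched no row were not analysed here. Named genes are the 10 genes, the 2 with the smallest adjusted p per endothelial list and comparison with uninjured tissue, the first 2 of each other list and the 6 most alike. The 10 genes and the lists were chosen with earlier results of these data known. Tables and figures used Python 3.11.15, pandas 2.3.3, numpy 2.4.6 and matplotlib 3.10.9.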

Additional observations from a re-analysis of the deposited data

How the results depend on the processing

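Of 57 values of the endothelial identity genes, 27 kept their direction and side of the threshold under every alternative. Over all their alternatives, 839 values did so, 32 lost and 13 gained significance, and 34 changed sign; the cause was not tested. A fit without 1 library has fewer samples for every gene, and the shares of all tested genes called in such fits were not counted. Leaving out 1 library at a time, the number of genes that rose at 48 h ranged from 0 to 4 and the number that fell from 1 to 3. That of genes lower at 21 d than in uninjured tissue ranged from 0 to 1, and that of genes higher at 21 d than at 48 h from 0 to 1. Relative to cdh5, the ranges were 1 to 3 lower at 48 h and 0 to 1 higher from 48 h to 21 d. Equal column totals left 1 gene lower at 48 h and 0 higher from 48 h to 21 d, quantile normalization 0 of the latter, and 2 groups in the fit gave 1 gene lower at 21 d. With kdrl as reference 3 genes were higher and 0 lower at 48 h, and 0 were higher and 2 lower from 48 h to 21 d. With the mean of the 10 genes, which holds the tested gene itself, these were 1 higher at 48 h and 2 lower from 48 h to 21 d. The shares of all tested genes called relative to kdrl or to that mean were not counted. With that mean, vwf (-1.10, limma adjusted p = 0.00257), flt1 (-0.99, 0.0221) and kdr (-0.89, 0.0252) stayed lower at 48 h. From 48 h to 21 d vwf stayed higher (0.98, 0.00695).

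Values whose sign changed under an alternative follow on the log2 scale, as ranges where 1 library at a time was left out. At 48 h, kdrl was 0.02 with equal column totals and with quantile normalization, and tek was -0.09 with array weights and from -0.11 to 0.27 without single libraries. The heart-muscle gene tnnt2a was 0.03 with quantile normalization and from -0.49 to 0.03 without single libraries, and tagln was from -0.43 to 1.0 without single libraries, the last past the threshold. At 21 d against uninjured tissue the ranges were -0.13 to 0.13 for cdh5, -0.32 to 0.61 for pecam1, -0.10 to 0.34 for tek and -0.18 to 0.03 for fli1a. Array weights gave -0.02 for tek and quantile normalization 0.05 for fli1a. From 48 h to 21 d, kdr was -0.23 with equal totals, -0.13 with quantile normalization, and -0.14 to 0.20 without single libraries. For tek these were -0.19, -0.04 and -0.15 to 0.29, and kdrl was from -0.21 to 0.20 without single libraries. Relative to kdrl in place of cdh5, tek was 0.31 at 48 h and fli1a 0.22 at 21 d, and fli1a was 0.15 relative to the mean of the 10 genes. Relative to cdh5 at 21 d without single libraries, tek was from -0.18 to 0.33, fli1a from -0.19 to 0.02 and pecam1 from -0.19 to 0.48.

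Same-numbered libraries deviated from their group means with correlations from -0.0204 to 0.0271, so the numbers were not taken as pairs. With the replicate number as a block, the counts of called endothelial genes were 3 higher and 3 lower at 48 h, 0 and 0 at 21 d, and 1 and 3 from 48 h to 21 d, the same as without it.

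With 3 libraries a group, an SE of 0.18 to 0.44 on the log2 scale limited what could be told apart for the 10 genes. The deposited values are rounded after normalization, so no count model was run, and the alternatives meant for raw counts (edgeR and DESeq2) were not run.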
